A study of Rattus norvegicus with 31 samples.

Results

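Kidney cortex of rats (Rattus norvegicus) in the high-salt model group (HS) was compared with kidney cortex of the normal control group (NC), across all expressed genes. The 9 libraries were those whose titles name cortex and either HS (4 libraries) or NC (5 libraries), out of 31 in the series. A further 6 cortex libraries came from rats given a high-salt diet plus calcitriol, the active hormone form of vitamin D (CAL); they shared the fit and their levels are given beside some genes. Each library was bulk total RNA of cortex, and nothing in the sources used here says which came from separate animals. The p-values set the HS and NC difference against the spread between the 15 cortex libraries fitted, which need not be the spread between animals. Strain, sex, age, salt content and duration of the diet are not given in the sources used here.

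The kidney cortex holds the glomeruli, which filter the blood, and mostly proximal tubule cells, which take back sodium, sugars, amino acids and protein from the filtrate. Those cells depend on vesicle traffic: membrane proteins enter the endoplasmic reticulum (ER), are folded there, leave in coated vesicles that small GTPases of the Arf, Sar and Rab families direct, and return from the apical surface through endosomes. Proteins are withdrawn by ubiquitin, a small protein that E1 and E2 enzymes and E3 ligases attach and deubiquitinases remove, and that marks them for the proteasome or for sorting into lysosomes. Proximal tubules draw their energy largely from fatty acid oxidation, make glucose, and handle dietary fructose and filtered urate.

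Total counts were 289529 to 849406 per HS library and 513294 to 1239310 per NC library, so genes with few counts were measured with little precision. Principal components of the 9 libraries were taken from the most variable of the genes tested, not from all of them. On the first component, which held 32.9% of the variance of those genes, HS libraries lay between 6.885 and 17.29 and NC libraries between -11.23 and -4.936. HS replicate 3, the shallowest library, stood apart from the others on the second component, at 18.04 against -12.3 to 4.761. The tissue label was checked against markers: all 11 proximal tubule S1 and S2 markers were tested, and their summed level was 11200 to 12700 counts per 1e6 counts (CPM) in HS and 9310 to 15400 CPM in NC. Papilla and urothelium markers summed to at most 4.71 CPM in HS and 20.7 CPM in NC, with 6 of 11 genes at 0 in all 9 libraries. In bulk tissue, fewer cells of a type and less RNA per cell cannot be told apart.

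Of 7524 genes tested, 831 (11.0%) passed an adjusted p of 0.05 between HS and NC in the edgeR quasi-likelihood test, and 2055 (27.3%) had an unadjusted p under 0.05. Genes higher in HS numbered 553 (7.35%) and genes lower numbered 278 (3.69%). The percentages past the adjusted p are the background for every list below. The median log2 fold change was 0.77 among genes called higher, -0.71 among genes called lower and -0.01 over all genes tested, and 175 called genes had an absolute log2 fold change above 1, 110 of them higher. Every HS library lay above every NC library for 560 genes (7.44% of those tested) and below every one for 424 (5.64%). Leaving out 1 library, the number of calls was 393, 324 and 469 for HS replicates 1, 2 and 4 and 553 for NC replicate 3. Of the 831 calls, 198 passed in all 9 fits that leave out 1 library, 153 of them higher in HS and 45 lower. A gene under the filter in such a fit was counted as not passing it. Where a gene's call was lost without a library, the adjusted p without it follows that library in parentheses, and SE is the standard error of the log2 fold change.

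**Figure D1:**
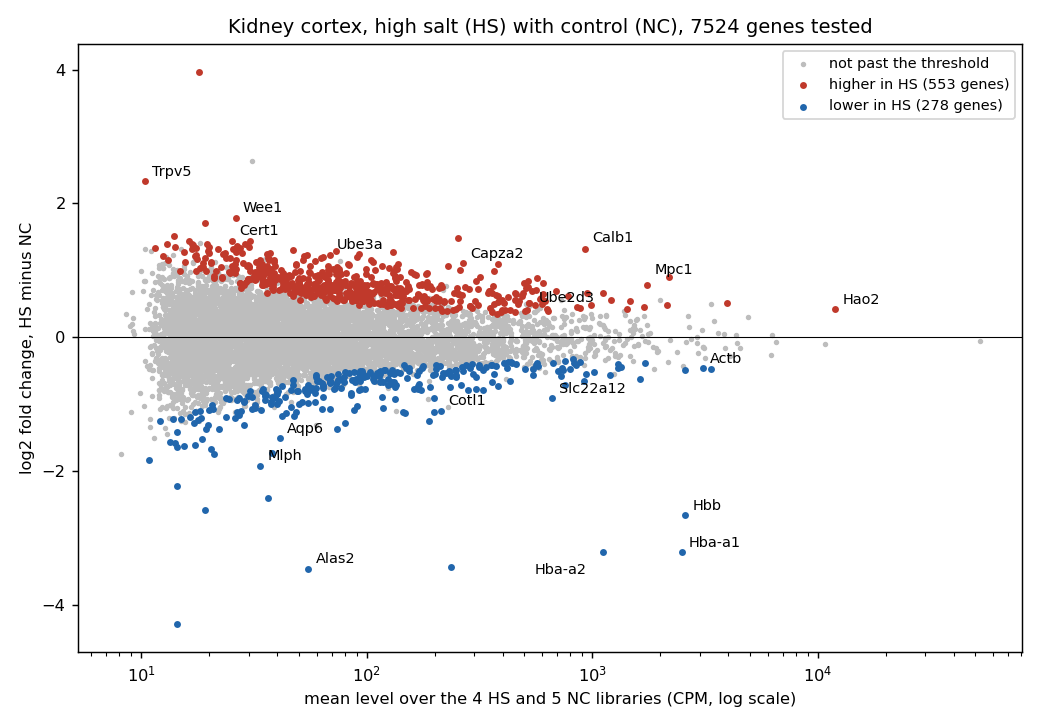
Each point is 1 of the 7524 genes tested, with its mean level over the 4 HS and 5 NC libraries on the horizontal axis (CPM, log scale) and its log2 fold change, HS minus NC, on the vertical axis. The 553 genes higher in HS lie above 0 and the 278 lower ones below, with haemoglobin chains and Alas2 the farthest below among the labelled genes and Trpv5 and Wee1 the farthest above.

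Erythrocyte transcripts moved with the groups. The 12 erythrocyte markers matched summed to 1070 to 1880 CPM in HS and 3980 to 20000 CPM in NC; 7 of the 9 tested passed, all lower, and Rhag and Ermap were at 0 in all 9 libraries. Hba-a2, a haemoglobin alpha chain, had 275, 128, 256 and 159 CPM in HS libraries 1 to 4, against 3669, 1527, 893, 741 and 2387 CPM in NC libraries 1 to 5. Hba-a2 had a log2 fold change of -3.22 (SE 0.35, adjusted p = 9.44e-06). Alas2, which starts haem synthesis in erythroid cells, had 11.1, 10.7, 0 and 8.35 CPM in HS libraries 1 to 4, against 229.7, 72.2, 37.8, 27.6 and 98.4 CPM in NC libraries 1 to 5. Alas2 had a log2 fold change of -3.46 (SE 0.57, adjusted p = 0.00105). Platelet markers summed to 20.7 to 32.5 CPM in HS and 54.1 to 64.8 CPM in NC, with Gp1bb and Gp5 at 0 and 1 of 2 tested genes lower. Among the other marker lists, the HS and NC ranges did not overlap for the distal convoluted tubule (1100 to 1800 CPM in HS, 604 to 865 CPM in NC, Pvalb at 0) and the thin limb (2030 to 2650 CPM in HS, 2760 to 3490 CPM in NC). Calb1 alone gave 901 to 1590 CPM of the distal convoluted tubule sum in HS and 461 to 654 CPM in NC, and the sum without it was 173 to 246 CPM in HS and 135 to 290 CPM in NC. Of the 6 thin limb markers tested 0 passed, and without Aqp1 the sum was 478 to 867 CPM in HS and 549 to 1320 CPM in NC. Without the erythrocyte genes 815 genes passed, 533 higher and 282 lower, and the part of blood content in the other genes' values was not tested.

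**Figure D2:**
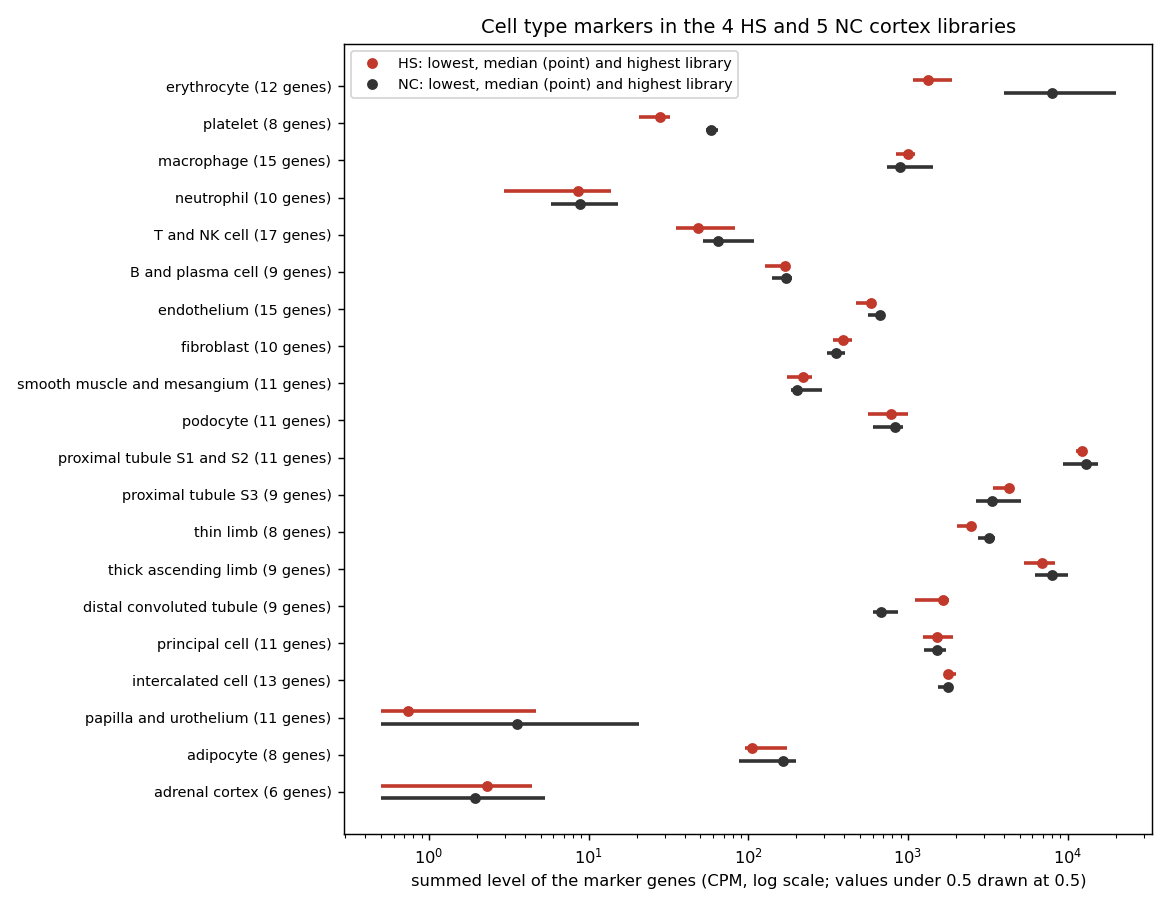
Summed level of each cell type's marker genes on the horizontal axis (CPM, log scale), as the lowest, median (point) and highest of the 4 HS libraries (upper, red) and the 5 NC libraries (lower, dark). HS lies wholly below NC for erythrocyte, platelet and thin limb markers and wholly above it for distal convoluted tubule markers; the other ranges overlap, and so do those of the distal convoluted tubule without Calb1 and of the thin limb without Aqp1.

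Promoter sequences are shown for a gene of ER folding, a ubiquitin-conjugating enzyme and a transporter, each called with every library left out in turn, so that the DNA around their transcription starts can be read beside their values. They are RefSeq sequences of build GRCr8, 300 bases each around the annotated start, read 5′ to 3′ on the gene's strand: Dnajb9 at chr6:67002002-67002301 (minus strand), Ube2d3 at chr2:226542944-226543243 (plus strand) and Slc22a12 at chr1:213281331-213281630 (minus strand). Capitals mark matches on either strand to CCAAT, to the E-box CACGTG or to the letters TGACG, none of which overlap here.
Dnajb9: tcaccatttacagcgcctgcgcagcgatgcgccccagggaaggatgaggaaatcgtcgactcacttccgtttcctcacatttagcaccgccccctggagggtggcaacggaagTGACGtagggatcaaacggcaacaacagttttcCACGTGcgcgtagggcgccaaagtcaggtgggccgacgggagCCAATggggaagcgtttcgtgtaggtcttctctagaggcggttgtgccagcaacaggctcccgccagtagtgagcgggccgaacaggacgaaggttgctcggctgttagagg
Ube2d3: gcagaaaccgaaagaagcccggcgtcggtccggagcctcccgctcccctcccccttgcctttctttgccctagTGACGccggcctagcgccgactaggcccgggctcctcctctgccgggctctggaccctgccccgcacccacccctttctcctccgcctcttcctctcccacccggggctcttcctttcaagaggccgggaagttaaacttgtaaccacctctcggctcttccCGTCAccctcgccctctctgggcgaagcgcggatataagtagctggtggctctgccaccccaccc
Slc22a12: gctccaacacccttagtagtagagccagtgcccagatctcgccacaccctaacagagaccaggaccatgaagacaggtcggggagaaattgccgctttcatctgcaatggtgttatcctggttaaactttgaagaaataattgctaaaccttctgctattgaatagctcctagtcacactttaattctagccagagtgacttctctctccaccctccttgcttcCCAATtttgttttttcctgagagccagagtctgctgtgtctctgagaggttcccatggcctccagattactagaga
The promoter of Dnajb9 held 1 match to each of the 3 motifs, that of Ube2d3 held 2 to TGACG and that of Slc22a12 held 1 to CCAAT. A promoter was at hand for 451 of the 553 genes higher in HS, 233 of the 278 lower and 6087 of the 7524 tested. TGACG occurred in 40.8% of promoters of genes higher in HS, 28.3% of genes lower and 34.4% of all. CCAAT occurred in 40.8%, 42.5% and 39.1% of the same sets, and CACGTG in 9.31%, 11.2% and 10.2%. These 3 were picked for display after the shares of 23 motifs had been seen, so the shares are descriptions and carry no test. Median GC content of the promoters was 62.7% for genes higher in HS, 61.0% for genes lower and 61.3% for all.

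Genes of vesicle traffic were called mostly in the higher direction. Of 283 tested in 6 lists, 35 were higher in HS (12.4%, background 7.35%) and 10 lower (3.53%, background 3.69%), while the median log2 fold change over the 283 was 0.00. Without HS replicate 1, 2 or 4 the number higher was 16, 16 and 20, and 12 members were higher in every fit that leaves out a library. Genes lower numbered 2 without HS replicate 2 or 4, 4 without NC replicate 3 or 5, 5 without NC replicate 4 and 6 without NC replicate 1 or HS replicate 1.

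Rab GTPases mark membranes and recruit the machinery that moves and tethers vesicles. Of 37 tested, 7 were higher and 1 lower (2 to 7 higher and 0 lower with a library left out). Rab10, which serves exocytic and basolateral traffic, had 162, 212, 133 and 199 CPM in HS libraries 1 to 4, against 108, 100.2, 93.6, 82.8 and 103 CPM in NC libraries 1 to 5. Rab10 had a log2 fold change of 0.88 (SE 0.16, adjusted p = 0.00162). Rab9a, of the route from late endosomes to the Golgi, had 48.8, 67.1, 35.1 and 60.9 CPM in HS libraries 1 to 4, against 25.5, 30.6, 16.2, 27.6 and 20.01 CPM in NC libraries 1 to 5. Rab9a had a log2 fold change of 1.16 (SE 0.26, adjusted p = 0.00743). For both, every HS library lay above every NC library. Rab1a, of ER to Golgi transport, rose by 0.51 on the log2 scale (adjusted p = 0.0202), a call lost without HS replicate 1 (0.0636) and HS replicate 2 (0.0721).

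Arf, Arl and Sar1 GTPases load coats onto membranes and place organelles. Of 15 tested, 6 were higher and 1 lower (3 to 6 higher and 0 to 1 lower with a library left out), with a median of 0.16 over the list. Arf4, of the Golgi and the recycling endosome, had 523, 558, 477 and 528 CPM in HS libraries 1 to 4, against 302, 375, 379.9, 307 and 367 CPM in NC libraries 1 to 5. Arf4 had a log2 fold change of 0.59 (SE 0.12, adjusted p = 0.00449). Arl8b, which carries lysosomes towards the cell edge, had 279, 329.6, 312 and 308 CPM in HS libraries 1 to 4, against 177, 222, 175, 195 and 198 CPM in NC libraries 1 to 5. Arl8b had a log2 fold change of 0.66 (SE 0.14, adjusted p = 0.00534). The HS and NC values of each did not overlap. Sar1b, which starts COPII coat assembly at the ER, rose by 0.54 (adjusted p = 0.0115), a call lost without HS replicate 1 (0.07). The call of Sar1b was lost with all libraries thinned to the depth of the shallowest (adjusted p = 0.0717).

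Coat and cargo proteins showed 5 of 46 higher (10.9%, background 7.35%) and 2 lower (4.35%, background 3.69%), with a median of -0.12. With a library left out 3 to 5 were higher and 0 to 1 lower. Every HS library lay above every NC library for 6 of the 46 and below every one for 9. Over all genes tested those separations took in 7.44% and 5.64%. Of the 46 coat and cargo genes, 28 had a fold change below 0. Tmed7, a p24 cargo receptor of ER to Golgi vesicles, had 184, 137, 147 and 150.4 CPM in HS libraries 1 to 4, against 63.8, 96.8, 63.01, 63.1 and 56.7 CPM in NC libraries 1 to 5. Tmed7 had a log2 fold change of 1.13 (SE 0.19, adjusted p = 0.00105). Even the highest NC library, replicate 2, stayed below the lowest HS library. Picalm, a clathrin adaptor, averaged 178 ± 19.9 CPM in HS and 109 ± 6.80 CPM in NC (log2 fold change 0.70, SE 0.15, adjusted p = 0.00584). Of 66 SNARE and tethering proteins 6 were higher and 1 lower (1 to 6 higher and 0 to 1 lower with a library left out); Bet1, a SNARE of ER to Golgi vesicles, averaged 96.3 ± 10.5 CPM in HS and 56.1 ± 4.45 CPM in NC (log2 fold change 0.75, SE 0.15, adjusted p = 0.00400). Of 75 endosome sorting proteins 8 were higher and 2 lower (2 to 10 higher and 0 to 3 lower with a library left out); Snx2, a sorting nexin of the retromer pathway, averaged 223 ± 21.7 CPM in HS and 145 ± 20.9 CPM in NC (log2 fold change 0.62, SE 0.15, adjusted p = 0.0104). The call of Snx2 was lost with all libraries thinned to the depth of the shallowest (adjusted p = 0.0757).

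Regulators of Rab and Arf proteins held calls in both directions, with 3 of 44 higher and 3 lower (2 to 3 higher and 1 to 3 lower with a library left out). Gdi2, which draws Rab proteins off membranes and keeps them soluble, had 738, 737, 589 and 611 CPM in HS libraries 1 to 4, against 424, 455, 369, 343 and 394 CPM in NC libraries 1 to 5. Gdi2 had a log2 fold change of 0.75 (SE 0.14, adjusted p = 0.00280). Mlph, melanophilin, which links Rab27a on granules to the motor myosin Va, had 6.65, 13.7, 24.5 and 11.9 CPM in HS libraries 1 to 4, against 52.5, 62.9, 36.01, 45.3 and 50.04 CPM in NC libraries 1 to 5. Mlph had a log2 fold change of -1.93 (SE 0.33, adjusted p = 0.00119). The groups did not overlap for either gene, and in HS the Mlph level was low in all 4 libraries. Myo5a, the myosin Va heavy chain, fell by 1.19 on the log2 scale (adjusted p = 0.0309), a call lost without NC replicate 1 (0.0693), NC replicate 3 (0.0539), HS replicate 1 (0.0583), HS replicate 2 (0.0741) and HS replicate 4 (0.124). The call of Myo5a was lost with no filter on low counts (adjusted p = 0.0572) and without the shallowest and the deepest library (adjusted p = 0.0631).

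Of the genes with the smallest p that no list holds, Tmem41b, Golph3 and Scoc are proteins of the ER or Golgi and Capza2 acts on actin. Capza2, a subunit of the capping protein of actin filaments, had the smallest p among genes higher in HS, at 368, 377, 424 and 359 CPM in HS libraries 1 to 4, against 223, 204, 162, 175 and 113 CPM in NC libraries 1 to 5. Capza2 had a log2 fold change of 1.10 (SE 0.16, adjusted p = 4.00e-04). Tmem41b, an ER lipid scramblase used in autophagosome formation, had 86.4, 90.02, 56.1 and 84.7 CPM in HS libraries 1 to 4, against 26.9, 40.8, 36.01, 35.5 and 31.7 CPM in NC libraries 1 to 5. Tmem41b had a log2 fold change of 1.23 (SE 0.19, adjusted p = 4.48e-04). Golph3, which binds Golgi lipid and myosin, had 284, 273, 217 and 228 CPM in HS libraries 1 to 4, against 149, 149, 129.6, 104 and 115 CPM in NC libraries 1 to 5. Golph3 had a log2 fold change of 0.94 (SE 0.16, adjusted p = 0.00105). Scoc, a coiled-coil protein of the Golgi, averaged 324 ± 53.1 CPM in HS and 154 ± 39.97 CPM in NC (log2 fold change 1.07, SE 0.17, adjusted p = 7.66e-04). No HS library of these 4 genes fell within the NC range, and the CAL mean of Capza2 was 250.2 ± 42.1 CPM, between the means of HS and NC.

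**Figure D3:**
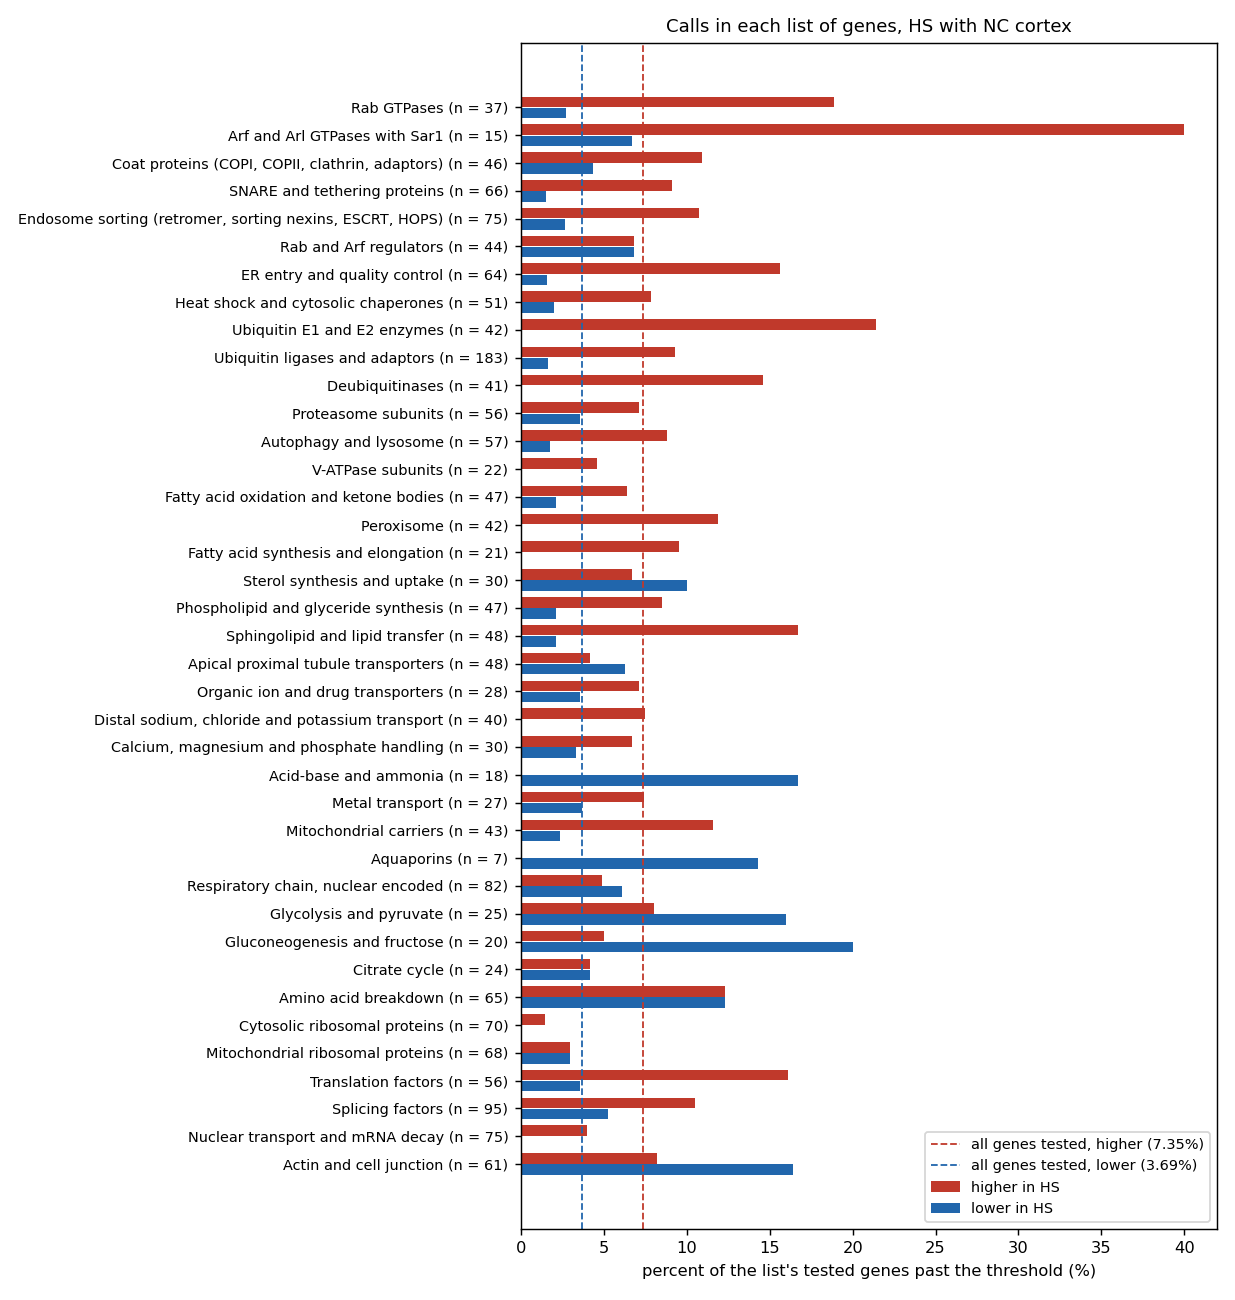
Bars give the percent of each list's tested genes that passed the threshold, higher (upper bar, red) or lower (lower bar, blue) in HS than in NC, with the number tested beside each list. Dashed lines mark the same percentages over all genes tested (7.35% higher, 3.69% lower); Arf and Arl GTPases have the longest higher bar, on 15 genes, and gluconeogenesis and fructose the longest lower bar of the lists drawn, on 20 genes.

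Protein folding in the ER was called mostly upwards. Of 64 tested genes of ER entry and quality control, 10 were higher (15.6%, background 7.35%) and 1 lower (1.56%, background 3.69%), with a median of 0.23. Of 51 heat shock and cytosolic chaperones 4 were higher (7.84%) and 1 lower (1.96%). Dnajb9, an ER co-chaperone of BiP, had 142, 90.02, 77.1 and 127 CPM in HS libraries 1 to 4, against 38.3, 60.3, 41.4, 35.5 and 43.4 CPM in NC libraries 1 to 5. Dnajb9 had a log2 fold change of 1.29 (SE 0.20, adjusted p = 7.66e-04). Erlec1, an ER lectin that hands misfolded glycoproteins to degradation, had 202, 183, 179 and 221 CPM in HS libraries 1 to 4, against 94.98, 121, 103, 130.1 and 110.1 CPM in NC libraries 1 to 5. Erlec1 had a log2 fold change of 0.82 (SE 0.15, adjusted p = 0.00214). For both, the lowest HS library exceeded the highest NC library. Spcs3, of the signal peptidase, averaged 105 ± 21.3 CPM in HS and 54.3 ± 13.1 CPM in NC (log2 fold change 0.95, SE 0.19, adjusted p = 0.00384), and Ssr3, of the translocon-associated complex, averaged 364 ± 40.01 CPM in HS and 220.2 ± 25.9 CPM in NC (log2 fold change 0.71, SE 0.15, adjusted p = 0.00462). These 4 passed with every library left out. Over both lists 14 genes were higher; without NC replicate 1 or 5 the number was 9, without NC replicate 3 or 4 it was 7, and without HS replicate 1, 2 or 4 it was 5, 7 and 8. The 2 genes lower became 1 without NC replicate 1 or 3 or HS replicate 2, 3 or 4, and none passed without HS replicate 1.

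Ubiquitin genes were also called mostly upwards. Of 322 tested, 36 were higher (11.2%) and 5 lower (1.55%), with a median of 0.05. Among E1 and E2 enzymes 9 of 42 were higher (21.4%), 3 of them with every library left out in turn, and 0 lower; in that direction edgeR gave 0 at an unadjusted p under 0.05, as did DESeq2 and voom at an adjusted p. Ube2d3, an E2 that serves many ligases, had 758, 703, 677 and 625.4 CPM in HS libraries 1 to 4, against 399.8, 438, 382, 307 and 387 CPM in NC libraries 1 to 5. Ube2d3 had a log2 fold change of 0.85 (SE 0.13, adjusted p = 4.48e-04). Ube2v2, a partner of the E2 that builds lysine-63 chains, averaged 77.03 ± 4.82 CPM in HS and 39.6 ± 3.63 CPM in NC (log2 fold change 0.95, SE 0.18, adjusted p = 0.00288). The HS and NC values of both were apart. The call of Ube2v2 was lost with all libraries thinned to the depth of the shallowest (adjusted p = 0.0818).

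Among ligases and their adaptors, 17 of 183 were higher and 3 lower (6 to 16 higher and 1 to 5 lower with a library left out). Ube3a, the founding HECT ligase, had 111, 91.5, 98.2 and 104 CPM in HS libraries 1 to 4, against 28.4, 50.97, 48.6, 41.4 and 43.4 CPM in NC libraries 1 to 5. Ube3a had a log2 fold change of 1.23 (SE 0.19, adjusted p = 4.48e-04). Fbxo3, a substrate adaptor of SCF ligases, averaged 119.8 ± 19.8 CPM in HS and 66.7 ± 9.75 CPM in NC (log2 fold change 0.84, SE 0.16, adjusted p = 0.00214). Fbxw5, another SCF adaptor, moved the other way at 155 ± 9.14 CPM in HS and 229 ± 15.4 CPM in NC (log2 fold change -0.57, SE 0.13, adjusted p = 0.00790). Ndfip1, a membrane adaptor of Nedd4-family ligases outside the lists, had 927, 803, 694 and 769.8 CPM in HS libraries 1 to 4, against 455, 517, 383, 416 and 500.4 CPM in NC libraries 1 to 5. Ndfip1 had a log2 fold change of 0.81 (SE 0.13, adjusted p = 7.66e-04). Its 4 HS values all exceeded the 5 NC values.

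Deubiquitinases had 6 of 41 higher (2 to 7 higher and 0 lower with a library left out), with the list's median at 0.25. Usp16, which acts on histone H2A, averaged 49.2 ± 8.39 CPM in HS and 21.2 ± 10.2 CPM in NC (log2 fold change 1.15, SE 0.28, adjusted p = 0.0115). Uchl5, a deubiquitinase that docks on the proteasome, rose by 0.80 (adjusted p = 0.0255), a call lost without NC replicate 3 (0.0598), HS replicate 2 (0.084), HS replicate 3 (0.0566) and HS replicate 4 (0.052). Proteasome subunits had 4 of 56 higher, 2 lower (1 to 5 higher and 0 to 2 lower with a library left out) and a median of -0.05. Psmc6, an ATPase of the proteasome base, had 166, 199.9, 168 and 180.2 CPM in HS libraries 1 to 4, against 96.4, 122, 95.4, 88.7 and 91.7 CPM in NC libraries 1 to 5. Psmc6 had a log2 fold change of 0.84 (SE 0.15, adjusted p = 0.00214). In the whole ubiquitin group the number higher was 14, 15 and 18 without HS replicate 1, 2 or 4 and 21 and 23 without NC replicate 3 or 4, and 10 genes were higher in every such fit. The number lower was 1 without NC replicate 1 or HS replicate 1 or 2, 2 without NC replicate 3 or 4, and 3 without NC replicate 5 or HS replicate 4. The call of Usp16 was lost with all libraries thinned to the depth of the shallowest (adjusted p = 0.118). The call of Uchl5 was lost with all libraries thinned to the depth of the shallowest (adjusted p = 0.0867), with no filter on low counts (adjusted p = 0.0511) and without the shallowest and the deepest library (adjusted p = 0.0758).

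Lysosomal and autophagy genes lay near the background, with 5 of 57 higher (8.77%, background 7.35%) and 1 lower (1.75%). Leaving out HS replicate 1 gave 1 higher, HS replicate 4 gave 2, and HS replicate 2 or NC replicate 1, 3 or 4 gave 3; 0 were lower without NC replicate 3 or 4 or HS replicate 2 or 3. Rb1cc1, the scaffold of the kinase complex that starts autophagy, averaged 41.5 ± 5.81 CPM in HS and 17.3 ± 5.55 CPM in NC (log2 fold change 1.26, SE 0.28, adjusted p = 0.00743). Ctsl, the lysosomal protease cathepsin L, had 3352, 2417, 2065 and 2382 CPM in HS libraries 1 to 4, against 1982, 1906, 1682, 1786 and 1783 CPM in NC libraries 1 to 5. Ctsl had a log2 fold change of 0.48 (SE 0.13, adjusted p = 0.0212), a call lost without HS replicate 1 (0.142). Of 22 V-ATPase subunits 1 passed, Atp6ap2, the prorenin receptor, at 329.6 ± 43.1 CPM in HS and 214 ± 12.9 CPM in NC (log2 fold change 0.63, SE 0.15, adjusted p = 0.0118, lost without HS replicate 1 (0.0512)). The call of Rb1cc1 was lost with all libraries thinned to the depth of the shallowest (adjusted p = 0.0737).

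**Figure D4:**
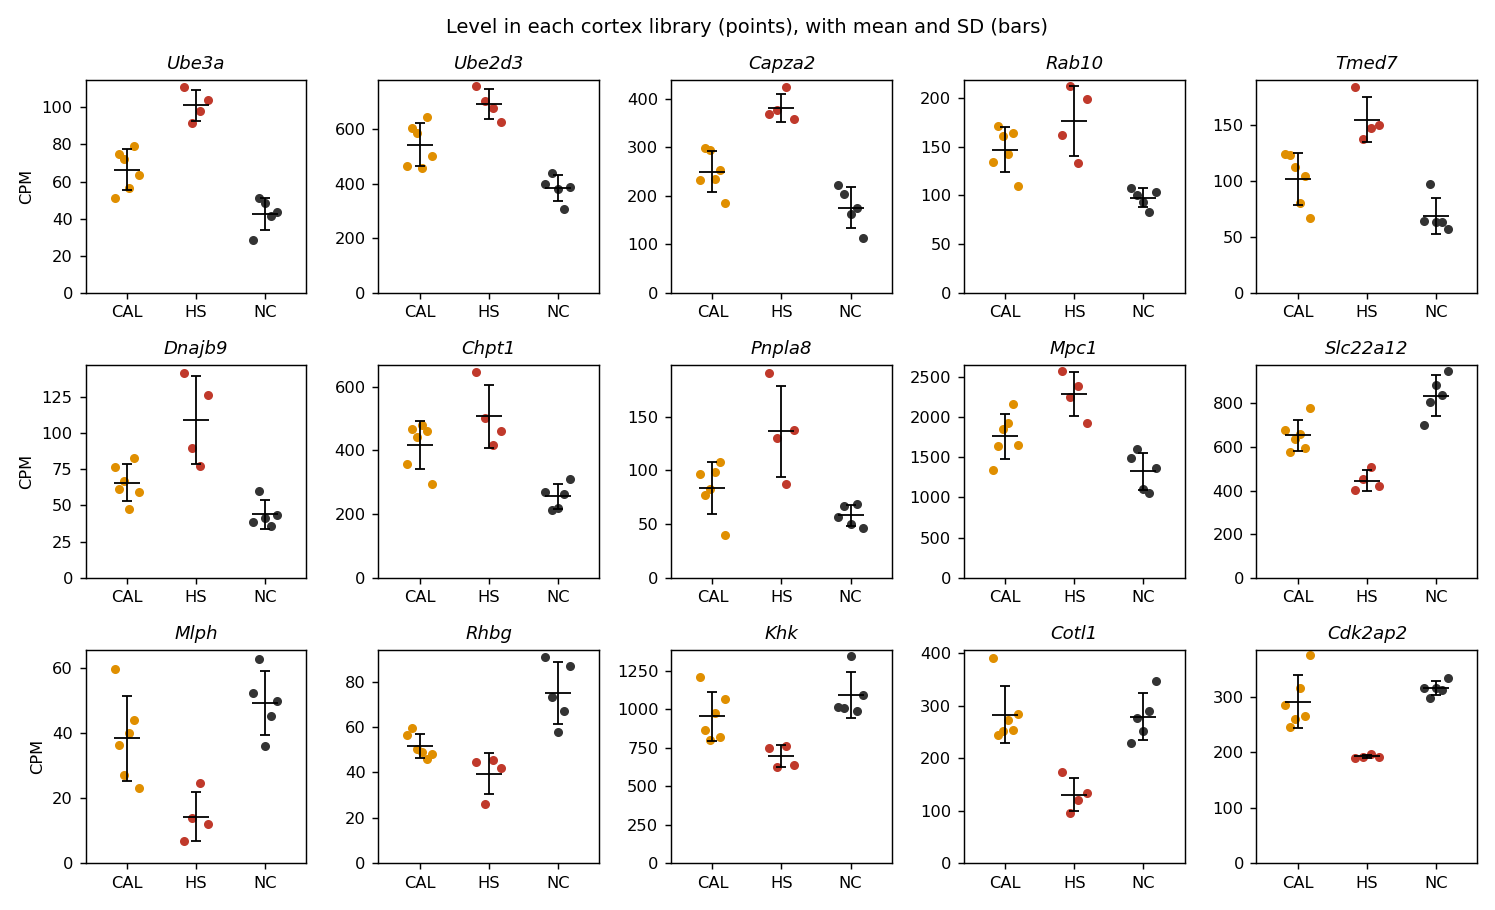
Level of 15 named genes (CPM, linear axis from 0) in each of the 6 CAL, 4 HS and 5 NC libraries, with points for libraries and bars for the mean and SD. HS points lie above all NC points in the first 9 panels (Ube3a to Mpc1) and below them in the last 6 (Slc22a12 to Cdk2ap2).

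Lipid genes were called in both directions, more of them higher. Over 235 tested lipid genes 24 were higher (10.2%, background 7.35%) and 6 lower (2.55%, background 3.69%), with a median of 0.12. Without HS replicate 1 or 2 the number higher was 13 and 14. The number lower was 2 without HS replicate 2 and 3 without HS replicate 4 or NC replicate 3. Of 48 genes of sphingolipids and lipid transfer, 8 were higher (16.7%) and 1 lower (3 to 7 higher and 0 to 2 lower with a library left out). Sgpp1, a phosphatase that returns sphingosine 1-phosphate to sphingosine, had 284, 154, 147 and 171 CPM in HS libraries 1 to 4, against 83.6, 81.6, 93.6, 82.8 and 118 CPM in NC libraries 1 to 5. Sgpp1 had a log2 fold change of 1.04 (SE 0.22, adjusted p = 0.00449). Cert1, which carries ceramide from the ER to the Golgi, had 42.1, 30.5, 49.1 and 34.6 CPM in HS libraries 1 to 4, against 15.6, 10.2, 19.8, 11.8 and 13.3 CPM in NC libraries 1 to 5. Cert1 had a log2 fold change of 1.44 (SE 0.34, adjusted p = 0.0115). Both had HS and NC values that did not overlap.

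Of 47 phospholipid and glyceride genes, 4 were higher and 1 lower (2 to 5 higher and 0 to 1 lower with a library left out). Chpt1, which completes phosphatidylcholine, had 647, 502, 417 and 462 CPM in HS libraries 1 to 4, against 269, 214, 219.6, 262 and 312 CPM in NC libraries 1 to 5. Chpt1 had a log2 fold change of 0.996 (SE 0.16, adjusted p = 7.19e-04). Pnpla8, a phospholipase of mitochondria and peroxisomes, had 191, 129.7, 87.6 and 137 CPM in HS libraries 1 to 4, against 56.7, 67.1, 50.4, 68.99 and 46.7 CPM in NC libraries 1 to 5. Pnpla8 had a log2 fold change of 1.24 (SE 0.22, adjusted p = 0.00151). HS replicate 3 was the lowest HS library for Pnpla8, and no HS value of either gene reached down to NC. Crls1, cardiolipin synthase, rose by 0.81 (adjusted p = 0.0109), a call lost without HS replicate 2 (0.061), while Pcyt2, of phosphatidylethanolamine synthesis, fell by 0.67 (adjusted p = 0.0136), a call lost without HS replicate 4 (0.0505). The call of Crls1 was lost with all libraries thinned to the depth of the shallowest (adjusted p = 0.0576).

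Peroxisomal genes had 5 of 42 higher, 3 of them with every library left out in turn. Hacl1, which shortens branched and 2-hydroxy fatty acids, had 226, 175, 207 and 269 CPM in HS libraries 1 to 4, against 83.6, 111, 109.8, 126 and 145 CPM in NC libraries 1 to 5. Hacl1 had a log2 fold change of 0.94 (SE 0.20, adjusted p = 0.00512). Idh1, the NADP-linked isocitrate dehydrogenase of cytosol and peroxisome, averaged 1190.5 ± 132 CPM in HS and 752 ± 107 CPM in NC (log2 fold change 0.66, SE 0.15, adjusted p = 0.00722). Hao2, a peroxisomal hydroxyacid oxidase, had 14523, 14776, 13945 and 12295 CPM in HS libraries 1 to 4, against 10309, 10852, 10984, 10325 and 9607 CPM in NC libraries 1 to 5. Hao2 had a log2 fold change of 0.41 (SE 0.12, adjusted p = 0.0249), a call lost without NC replicate 5 (0.0581), HS replicate 1 (0.0778) and HS replicate 2 (0.0777). In fatty acid oxidation 3 of 47 genes were higher and 1 lower (1 to 4 higher and 1 to 2 lower with a library left out). Acads, the short-chain acyl-CoA dehydrogenase, had 131, 108, 119 and 134 CPM in HS libraries 1 to 4, against 177, 194, 196, 215 and 247 CPM in NC libraries 1 to 5. Acads had a log2 fold change of -0.73 (SE 0.15, adjusted p = 0.00449). Its 4 HS values all lay below NC. Of 30 sterol genes 2 were higher and 3 lower (0 to 1 higher and 0 to 3 lower with a library left out); Dhcr7, of the last step to cholesterol, fell by 0.995 (adjusted p = 0.0295), a call lost without NC replicate 3 (0.0638), NC replicate 5 (0.0725), HS replicate 2 (0.125) and HS replicate 3 (0.063). The call of Hao2 was lost with no filter on low counts (adjusted p = 0.064), with all libraries thinned to the depth of the shallowest (adjusted p = 0.0517) and with an offset for promoter GC (adjusted p = 0.296). The call of Dhcr7 was lost without the shallowest and the deepest library (adjusted p = 0.0771).

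Transport genes lay near the background, with 21 of 291 higher (7.22%), 14 lower (4.81%) and a median of -0.02. The number higher was 13 without NC replicate 1 and 8, 11 and 10 without HS replicate 1, 2 or 4, and the number lower was 8 without NC replicate 4 and 9, 5 and 7 without those HS libraries. Slc22a12, the apical urate exchanger of the proximal tubule, had 403, 453, 508 and 419 CPM in HS libraries 1 to 4, against 700.3, 805, 884, 838 and 949 CPM in NC libraries 1 to 5. Slc22a12 had a log2 fold change of -0.91 (SE 0.12, adjusted p = 1.43e-04). It had the smallest p in the transport lists, with a CAL mean of 654 ± 71.3 CPM. Slc6a19, the apical carrier of neutral amino acids, had 548, 360.1, 571 and 422 CPM in HS libraries 1 to 4, against 265, 406, 216, 237 and 239 CPM in NC libraries 1 to 5. Slc6a19 had a log2 fold change of 0.77 (SE 0.17, adjusted p = 0.00743). NC replicate 2 was the only NC library within its HS range. Amn, amnionless, the membrane anchor of the receptor cubilin, averaged 235 ± 63.7 CPM in HS and 403 ± 40.6 CPM in NC (log2 fold change -0.79, SE 0.19, adjusted p = 0.0119), a call lost without HS replicate 2 (0.0638).

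Of 30 genes of calcium, magnesium and phosphate handling 2 were higher (6.67%, background 7.35%) and 1 lower (1 to 3 higher and 0 to 1 lower with a library left out), with a median of 0.09. The 2 higher were Calb1 and Trpv5 of the distal nephron, which also belong to the distal convoluted tubule markers; the part of cell content was not tested. Calb1, the calcium buffer calbindin, had 1694, 1393, 915 and 1575 CPM in HS libraries 1 to 4, against 546, 688, 489.7, 581 and 487 CPM in NC libraries 1 to 5. Calb1 had a log2 fold change of 1.32 (SE 0.28, adjusted p = 0.00534). Trpv5, the apical calcium channel, had 22.2, 16.8, 7.01 and 28.6 CPM in HS libraries 1 to 4, against 1.42, 5.95, 1.80, 5.91 and 3.34 CPM in NC libraries 1 to 5. Trpv5 had a log2 fold change of 2.33 (SE 0.46, adjusted p = 0.00361). Its NC values rest on few counts; of the 9 fits with a library left out, 6 kept Trpv5 above the filter and all 6 called it. Of 40 genes of distal sodium, chloride and potassium transport 3 were higher (7.5%, background 7.35%), with a median of 0.02. With a library left out 1 to 4 were higher and 0 to 1 lower. In the lower direction 0 passed in edgeR and 6 had an unadjusted p under 0.05, while DESeq2 and voom each called 1. The member with the smallest p was Tsc22d2, at 37.7 ± 9.04 CPM in HS and 17.2 ± 5.39 CPM in NC (log2 fold change 1.15, SE 0.28, adjusted p = 0.0117). The call of Tsc22d2 was lost with all libraries thinned to the depth of the shallowest (adjusted p = 0.138).

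Of 18 acid-base and ammonia genes 3 were lower (0 higher and 2 to 3 lower with a library left out). In the higher direction 0 passed in edgeR and 1 had an unadjusted p under 0.05, while DESeq2 called 1 and voom 0. Rhbg, an ammonia channel of the collecting duct, had 44.3, 25.9, 45.6 and 41.8 CPM in HS libraries 1 to 4, against 90.7, 73.1, 57.6, 67.02 and 86.7 CPM in NC libraries 1 to 5. Rhbg had a log2 fold change of -0.97 (SE 0.20, adjusted p = 0.00449). Aqp6, a channel of intercalated cell vesicles, had 19.9, 16.8, 10.5 and 27.4 CPM in HS libraries 1 to 4, against 86.5, 28.9, 59.4, 51.2 and 68.4 CPM in NC libraries 1 to 5. Aqp6 had a log2 fold change of -1.51 (SE 0.35, adjusted p = 0.00939). All HS values of both were below all NC values. The summed intercalated cell markers were 1700 to 2010 CPM in HS and 1550 to 1810 CPM in NC, with 2 of 13 genes, these same ones, lower. Car2, the most abundant of these markers, went the other way, at 770 to 964 CPM in HS and 629 to 714 CPM in NC. In the higher direction 0 markers passed in edgeR and 2 had an unadjusted p under 0.05, while DESeq2 and voom each called 1.

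Mitochondrial carriers had 5 of 43 higher and 1 lower (2 to 5 higher and 0 to 2 lower with a library left out). Mpc1, of the carrier that brings pyruvate into mitochondria, had 2571, 2243, 2380.3 and 1923 CPM in HS libraries 1 to 4, against 1486, 1596, 1105, 1057 and 1364 CPM in NC libraries 1 to 5. Mpc1 had a log2 fold change of 0.78 (SE 0.14, adjusted p = 0.00180). Micu2, which gates mitochondrial calcium uptake, averaged 168 ± 17.5 CPM in HS and 105 ± 11.7 CPM in NC (log2 fold change 0.68, SE 0.16, adjusted p = 0.00853). HS and NC did not overlap for these genes. The call of Micu2 was lost with all libraries thinned to the depth of the shallowest (adjusted p = 0.092).

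Genes of energy metabolism were called in both directions. Of 207 tested, 22 were lower (10.6%, background 3.69%) and 15 higher (7.25%), with a median of -0.04. Which direction held more calls depended on single libraries: 12 were lower and 14 higher without NC replicate 3, 7 lower and 9 higher without HS replicate 2, and 11 lower and 13 higher without HS replicate 4. Without HS replicate 1, 12 were lower and 7 higher. Of 20 genes of gluconeogenesis and fructose 4 were lower and 1 higher (1 higher and 1 to 4 lower with a library left out). Khk, ketohexokinase, which starts fructose breakdown, had 751, 626, 761 and 638 CPM in HS libraries 1 to 4, against 1016, 1008, 1350.3, 989.5 and 1092 CPM in NC libraries 1 to 5. Khk had a log2 fold change of -0.66 (SE 0.14, adjusted p = 0.00449). Gk, glycerol kinase, was higher at 245 ± 63.5 CPM in HS and 146 ± 10.2 CPM in NC (log2 fold change 0.77, SE 0.17, adjusted p = 0.00790).

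Of 25 genes of glycolysis and pyruvate 4 were lower and 2 higher (1 to 2 higher and 1 to 4 lower with a library left out), and 18 had a fold change below 0. Eno1, enolase, averaged 945 ± 94.2 CPM in HS and 1393 ± 94.4 CPM in NC (log2 fold change -0.56, SE 0.12, adjusted p = 0.00517). Dld, a subunit that pyruvate dehydrogenase shares with the branched-chain complex, had 341, 360.1, 326 and 385 CPM in HS libraries 1 to 4, against 219.7, 271, 196, 175 and 185 CPM in NC libraries 1 to 5. Dld had a log2 fold change of 0.75 (SE 0.15, adjusted p = 0.00347). Amino acid breakdown had 8 of 65 higher and 8 lower (4 to 8 higher and 2 to 9 lower with a library left out). Haao, of the kynurenine pathway, had 559, 479, 613 and 591 CPM in HS libraries 1 to 4, against 880.3, 819.8, 1082, 934 and 866 CPM in NC libraries 1 to 5. Haao had a log2 fold change of -0.71 (SE 0.14, adjusted p = 0.00280). For Eno1, Dld and Haao the HS and NC values did not overlap. Mmut, methylmalonyl-CoA mutase, averaged 231 ± 39.3 CPM in HS and 133 ± 12.5 CPM in NC (log2 fold change 0.78, SE 0.15, adjusted p = 0.00285), and Dbt, of the branched-chain complex, averaged 125 ± 18.9 CPM in HS and 67.6 ± 9.77 CPM in NC (log2 fold change 0.84, SE 0.18, adjusted p = 0.00534). In the respiratory chain 4 of 82 were higher and 5 lower (1 to 5 higher and 2 to 5 lower with a library left out); the complex I subunit Ndufb7 averaged 293 ± 32.4 CPM in HS and 427 ± 30.1 CPM in NC (log2 fold change -0.55, SE 0.12, adjusted p = 0.00766). Sucla2, of the citrate cycle, averaged 573 ± 36.6 CPM in HS and 366 ± 32.3 CPM in NC (log2 fold change 0.64, SE 0.13, adjusted p = 0.00317).

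Genes of the actin skeleton and cell junctions had 10 of 61 lower (16.4%) and 5 higher, with a median of 0.03. Cotl1, a coactosin-like protein that binds actin filaments, had 173, 96.1, 119 and 134 CPM in HS libraries 1 to 4, against 229.7, 277, 252, 289.8 and 347 CPM in NC libraries 1 to 5. Cotl1 had a log2 fold change of -1.10 (SE 0.18, adjusted p = 7.66e-04). Tln1, talin, which ties integrins to actin, had 66.5, 65.6, 70.1 and 65.6 CPM in HS libraries 1 to 4, against 118, 98.5, 129.6, 122 and 110.1 CPM in NC libraries 1 to 5. Tln1 had a log2 fold change of -0.78 (SE 0.16, adjusted p = 0.00464). Both Cotl1 and Tln1 were lower in every HS library than in any NC library. Cfl2, a cofilin that severs filaments, was higher at 141 ± 14.5 CPM in HS and 74.3 ± 14.5 CPM in NC (log2 fold change 0.90, SE 0.17, adjusted p = 0.00288). Cotl1 averaged 283 ± 55.1 CPM in CAL, 130.5 ± 32.2 CPM in HS and 279 ± 44.4 CPM in NC. Outside the list, Tns1, a tensin of focal adhesions, averaged 88.5 ± 16.4 CPM in HS and 196 ± 56.99 CPM in NC (log2 fold change -1.14, SE 0.21, adjusted p = 0.00245), and Espn, espin, which bundles actin in microvilli, averaged 218 ± 28.1 CPM in HS and 372 ± 75.5 CPM in NC (log2 fold change -0.78, SE 0.15, adjusted p = 0.00247). Actb, beta-actin, had 2325, 2418, 2909.6 and 2569 CPM in HS libraries 1 to 4, against 3480.2, 3463, 3583, 3839.8 and 3277 CPM in NC libraries 1 to 5. Actb had a log2 fold change of -0.47 (SE 0.12, adjusted p = 0.0150), a call lost without HS replicate 2 (0.0594). Over the structural lists together 13 of 105 genes were lower; the number was 7 without NC replicate 1 or HS replicate 1, 6 without NC replicate 3 or 4 or HS replicate 4, and 4 without HS replicate 2.

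Translation factors had 9 of 56 higher (16.1%) and 2 lower (1 to 9 higher and 0 to 2 lower with a library left out), while of 70 cytosolic ribosomal proteins 1 was higher. Eif5, the GTPase-activating protein of eIF2 in initiation, averaged 183 ± 13.2 CPM in HS and 109.8 ± 18.9 CPM in NC (log2 fold change 0.72, SE 0.16, adjusted p = 0.00731). Eif2s1, the alpha subunit of eIF2, rose by 0.72 (adjusted p = 0.00984), a call lost without HS replicate 2 (0.0511). Of 95 splicing factors 10 were higher and 5 lower (3 to 11 higher and 2 to 5 lower with a library left out). Rbm3, a cold-inducible RNA-binding protein, averaged 93.7 ± 17.6 CPM in HS and 45.6 ± 11.6 CPM in NC (log2 fold change 0.998, SE 0.20, adjusted p = 0.00393), and Rbm38, an RNA-binding protein that is a target of p53, averaged 16.4 ± 3.40 CPM in HS and 54.95 ± 14.7 CPM in NC (log2 fold change -1.73, SE 0.30, adjusted p = 0.00119). Over all lists of gene expression 25 of 364 were higher (6.87%, background 7.35%) and 9 lower (2.47%, background 3.69%), so neither share exceeded the background. The number higher was 13 and 5 without HS replicate 1 or 2. The 9 lower became 3 without HS replicate 1 or 4, 4 without HS replicate 2 and 5 without NC replicate 1, 3 or 4.

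Wee1, the kinase that delays mitosis and an output gene of the clock, had 42.1, 42.7, 49.1 and 40.6 CPM in HS libraries 1 to 4, against 15.6, 12.7, 7.20, 15.8 and 10.01 CPM in NC libraries 1 to 5. Wee1 had a log2 fold change of 1.79 (SE 0.27, adjusted p = 4.48e-04). Every HS value exceeded every NC and CAL value. Of 38 genes of the cell cycle and DNA replication 4 were higher (10.5%, background 7.35%) and 1 lower (2.63%, background 3.69%). With a library left out 2 to 6 were higher and 0 to 2 lower. Log2 fold changes over that list ran from -2.58 to 1.79. Smc4, a condensin subunit, averaged 25.3 ± 2.50 CPM in HS and 9.03 ± 3.48 CPM in NC (log2 fold change 1.43, SE 0.35, adjusted p = 0.0122). Cdk2ap2, which binds the kinase Cdk2, had 191, 192, 196 and 191 CPM in HS libraries 1 to 4, against 316, 299, 317, 313 and 335 CPM in NC libraries 1 to 5. Cdk2ap2 had a log2 fold change of -0.72 (SE 0.13, adjusted p = 0.00185), and its 4 HS values lay close together below NC. Of 13 clock genes 4 were higher and 1 lower. The number higher was 2 without NC replicate 5 or HS replicate 1, 3 or 4, and the 1 lower passed only when NC replicate 4 was the library left out. Among those higher was Nr1d2, a repressor of the clock, at 99.8 ± 10.97 CPM in HS and 51.6 ± 11.3 CPM in NC (log2 fold change 0.94, SE 0.22, adjusted p = 0.00923).

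Of 18 immediate early genes 0 passed the edgeR test at an adjusted p, 1 had an unadjusted p under 0.05, and 0 passed with DESeq2 or voom. Gadd45g, a stress-induced growth arrest gene, averaged 24.1 ± 13.8 CPM in HS and 50.8 ± 25.97 CPM in NC (-0.87, adjusted p = 0.118). Of 12 genes of the renin-angiotensin system 1 passed, Atp6ap2 above. Of 28 genes of extracellular matrix and fibrosis 1 was higher and 2 lower (0 to 1 higher and 1 to 2 lower with a library left out). Of 18 tubule injury genes 2 were lower; leaving out NC replicate 1, 3, 4 or 5 or HS replicate 2 or 4 gave 0, and leaving out HS replicate 1 or 3 gave 1. Of the matrix list, Col4a2, a chain of basement membrane collagen, averaged 7.40 ± 6.20 CPM in HS and 25.2 ± 2.87 CPM in NC (log2 fold change -1.62, SE 0.39, adjusted p = 0.0123), a call lost without HS replicate 4 (0.0628). The HS values of Col4a2 rest on few counts. Of 20 genes of antigen presentation 4 were lower (20%, background 3.69%) and 1 higher (5.0%) (0 to 1 higher and 0 to 6 lower with a library left out), with a median of -0.46, and 18 had a fold change below 0; none of these 5 calls held with every library left out. Macrophage markers summed to 839 to 1110 CPM in HS and 738 to 1440 CPM in NC, with 0 of 8 tested genes past the edgeR threshold, 1 at an unadjusted p under 0.05 and 0 with DESeq2 or voom.

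**Figure D5:**
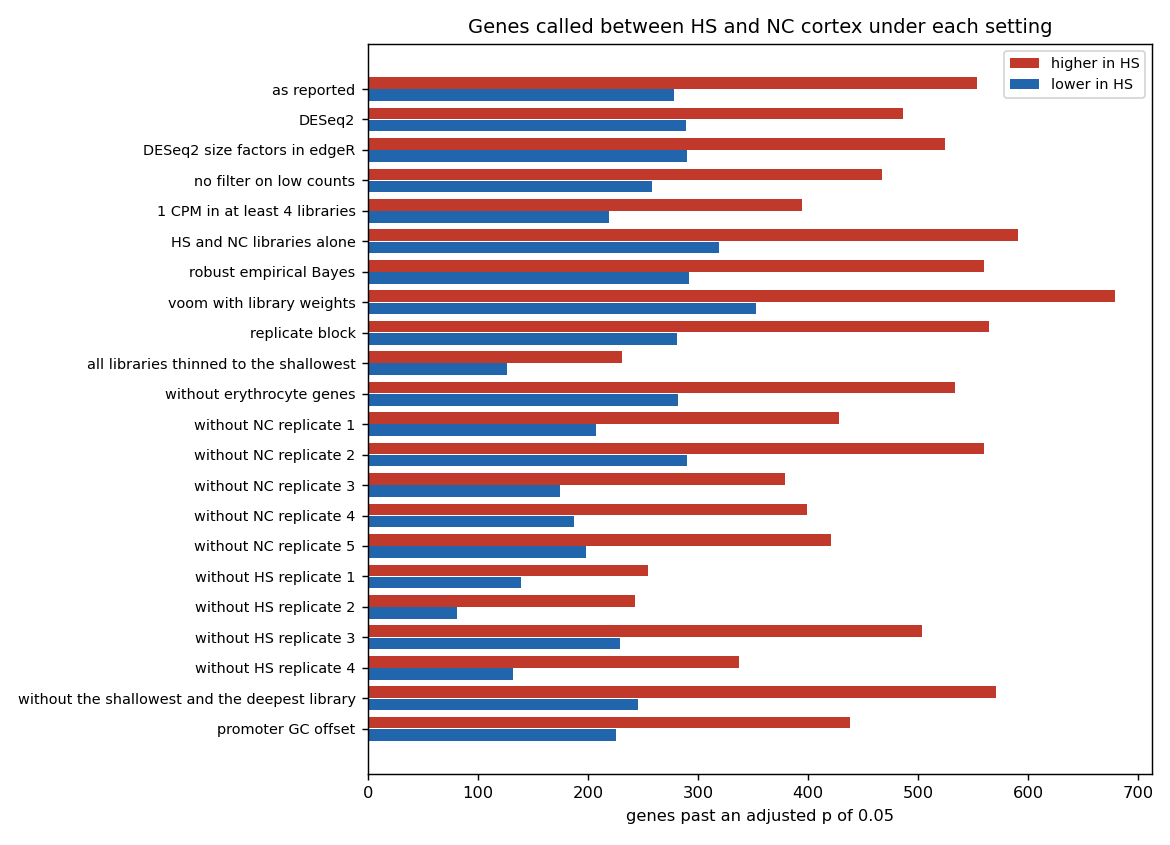
Number of genes past an adjusted p of 0.05 between HS and NC under each setting, as bars for genes higher (red) and lower (blue) in HS. Genes higher outnumber genes lower under every setting shown; the shortest higher bar is that with all libraries thinned to the shallowest (231) and the shortest lower bar that without HS replicate 2 (81).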

How the data were processed

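RNA was extracted from kidney cortex with TRIzol and sequenced on a NextSeq 500 after tagmentation library preparation, per the labels' protocols and the series' design text. Per the submitters' processing notes, the authors used FastQC 0.11.9, Trimmomatic 0.39, HISAT2 2.1.0 and featureCounts 1.6.5 with build Rnor_6.0; the annotation and strand setting are not given in the sources used here. The authors deposited whole-number counts per gene symbol, not normalised (20207 symbols, 5515 without a count in the 9 libraries). The kit does not mark strand, so overlapping genes on opposite strands cannot be told apart, and near-identical gene copies such as haemoglobin chains may share reads.

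Counts of the 15 cortex libraries (HS, NC and CAL) were fitted together by edgeR (4.0.16, R 4.3.3), using its quasi-likelihood test, TMM scaling, the default filter (minimum count 10, minimum total 15) and Benjamini-Hochberg adjustment over the 7524 genes tested; the threshold was 0.05. SE comes from the quasi-likelihood F. Gene levels are TMM-scaled CPM over tested genes, given per library or as mean ± SD over 4 HS, 5 NC or 6 CAL libraries; marker sums are plain CPM. Intervals on counts were not computed. A call is said to be lost where leaving out the named library gives the edgeR adjusted p in parentheses. Within HS and within NC, no pair of libraries held identical values, and other pairs were not compared. The test was checked on simulated counts.

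The comparison, the 52 function lists and the 21 marker lists were chosen with earlier results of these data known, and lists are described by counts and medians without a test. Of 1816 list entries, 1752 matched a symbol, 11 through synonyms. Genes were named by rule: the 12 higher and 12 lower with the smallest p and an assigned symbol, the 6 each way with the highest mean CPM, up to 4 called members of each described list with the smallest p, or its 2 smallest where none passed, and the leading marker of each marker list; the text gives part of these. Alternatives were other filters, DESeq2 (1.42.0), edgeR scaled by DESeq2 size factors, HS and NC alone, robust fitting, limma 3.58.1 voom with library weights, a replicate block, thinning, leaving out erythrocyte genes and leaving out each library. Chosen after seeing the data were an offset for promoter GC content, leaving out the shallowest and deepest library together, and marker sums without their most abundant gene. Protein length and composition were not analysed here, and results for a few genes are not reported here.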

Additional observations from a re-analysis of the deposited data

Results flagged for a closer look

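Among the named genes reported here, 23 values stood far from the others of their group, by a gap to the nearest library that took up most of the group's range; chance does so in about 1 in 20 groups, which is about 19 of the 386 groups looked at, so most or all of these may be chance. Of these, 10 lay in HS libraries and 13 in NC libraries, with 5 in NC replicate 3 and 4 each in HS replicates 2 and 3 and NC replicate 2.

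Tmem41b in HS replicate 3 was 56.1 CPM, against 84.7 to 90.0 CPM in the other HS libraries. Tns1 in HS replicate 2 was 64.1 CPM, against 94.3 to 98.2 CPM in the other HS libraries. Tmed2 in HS replicate 2 was 554 CPM, against 431 to 444 CPM in the other HS libraries. Myo5a in HS replicate 4 was 7.16 CPM, against 10.5 to 11.1 CPM in the other HS libraries. Psma1 in HS replicate 3 was 249 CPM, against 285 to 293 CPM in the other HS libraries. Amn in HS replicate 2 was 140 CPM, against 259 to 276 CPM in the other HS libraries. Gsta2 in HS replicate 2 was 59.5 CPM, against 118 to 129 CPM in the other HS libraries. Mrps36 in HS replicate 4 was 191 CPM, against 276 to 284 CPM in the other HS libraries. Cnot7 in HS replicate 3 was 49.1 CPM, against 64.3 to 65.6 CPM in the other HS libraries. Tie1 in HS replicate 3 was 28.0 CPM, against 22.2 to 22.9 CPM in the other HS libraries.

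Tmed7 in NC replicate 2 was 96.8 CPM, against 56.7 to 63.8 CPM in the other NC libraries. Espn in NC replicate 3 was 504 CPM, against 317 to 357 CPM in the other NC libraries. Glyat in NC replicate 2 was 1742 CPM, against 1343 to 1418 CPM in the other NC libraries. Spcs3 in NC replicate 4 was 31.5 CPM, against 56.7 to 65.4 CPM in the other NC libraries. Psmc6 in NC replicate 2 was 122 CPM, against 88.7 to 96.4 CPM in the other NC libraries. Rb1cc1 in NC replicate 1 was 26.9 CPM, against 13.3 to 16.2 CPM in the other NC libraries. Slc6a19 in NC replicate 2 was 406 CPM, against 216 to 265 CPM in the other NC libraries. Slc17a5 in NC replicate 3 was 104 CPM, against 59.5 to 61.1 CPM in the other NC libraries. Ndufs7 in NC replicate 5 was 709 CPM, against 601 to 628 CPM in the other NC libraries. Khk in NC replicate 3 was 1350 CPM, against 990 to 1092 CPM in the other NC libraries. Gsta2 in NC replicate 3 was 627 CPM, against 115 to 187 CPM in the other NC libraries. Sult1b1 in NC replicate 1 was 48.2 CPM, against 86.7 to 102 CPM in the other NC libraries. Rock2 in NC replicate 3 was 45.0 CPM, against 20.01 to 24.1 CPM in the other NC libraries.

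Leaving out the library concerned ended the edgeR call of Tmed2 (HS replicate 2, adjusted p = 0.055), Myo5a (HS replicate 4, adjusted p = 0.124), Amn (HS replicate 2, adjusted p = 0.0638), Gsta2 (HS replicate 2, adjusted p = 0.144), Gsta2 (NC replicate 3, adjusted p = 0.15) and Sult1b1 (NC replicate 1, adjusted p = 0.115).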

How the results depend on the processing

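Between HS and NC, 831 genes passed, 553 higher and 278 lower. With all libraries thinned to the shallowest, 357 passed, 231 higher and 126 lower, with 737 of the 831 still tested and 324 of them still past. Leaving out each library in turn gave 324 to 850 genes, 243 to 560 higher and 81 to 290 lower; the count moved by more than 1.5 times without HS replicates 1, 2 or 4 or NC replicate 3. Every other alternative stayed within 1.5 times: 613 genes with a filter of 1 CPM in at least 4 libraries, 663 with the promoter GC offset (6087 genes tested), 725 without a filter, 775 with DESeq2, 815 without erythrocyte genes and 1032 with voom and library weights. No called gene changed sign under any alternative. Of the 185 named genes past the threshold, 80 passed in all 9 fits that leave out a library, and 55 passed in the 12 other alternatives too. A gene not tested under a setting was counted as not passing it. Of the 831 calls, 684 were tested with the promoter GC offset and 824 without erythrocyte genes. Counts of list members moved by more than 1.5 times in 640 cases and stayed within that in 1544.

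The HS and NC libraries share replicate numbers, but the labels tie no number to an animal, litter or day. The deviations of same-numbered libraries correlated by -0.0798, 0.0675, -0.0116 and 0.0262, and those of differently numbered libraries by -0.0798 to 0.0745. Of the 4 HS libraries 1 correlated best with its own number. With so few libraries these values cannot decide whether the numbers pair the samples. With the replicate number as a block 845 genes passed, 564 higher and 281 lower, and 716 of the 831 remained.

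With 289529 counts in HS replicate 3, low genes carry few counts, and genes under the filter were not tested. Salt intake, blood pressure and the makeup of cells were not measured in these files.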
